A study of Mus musculus with 10 samples.

Results

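The genes described here are 56 mouse genes of DNA replication and mitosis, of which 31 act in replication or in the supply of nucleotides and 25 act in mitosis. They were chosen by name, and 55 of the 56 were found under a single gene symbol on the array, which measured 12393 such genes. Each gene was represented by its probe set with the highest mean over all 10 arrays. All 55, made up of 30 replication and 25 mitosis genes, passed a filter, which asked for a log2 value over 4 on 2 or more arrays. The filter left 8599 genes in all, and Gins2 was not analysed here.

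The study measured 5 groups of mouse cells on 2 single-channel Affymetrix arrays each. Induced pluripotent stem cells (iPSC) are differentiated cells that were returned to a pluripotent state by the Yamanaka transcription factors. One iPSC group had been grown in 2i/serum, where 2i is the usual name for a pair of kinase inhibitors that hold mouse pluripotent cells in a naive state. The other iPSC group had been kept together with mouse embryonic fibroblasts (MEFs). Whether RNA of the MEFs was removed is not stated. The remaining groups were secondary MEFs after 32 days of factor expression, that is, fibroblasts derived from iPSC that can be made to express the factors again. One of these is a day 32 sample with no named fraction, and the others are the fractions positive and negative for Sox2. The series title names RNA FACS, a sort on the fluorescence of probes bound to an RNA, and the labels do not say how each group was collected. No strain or further allele or agent is named beyond a standard mouse embryonic stem cell medium. The cell type label of all 5 groups is iPSC. The labels do not say whether the 2 replicates of a group came from separate cultures, so the p-values below measure only the spread between these samples.

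Dividing cells copy their DNA once per cycle. Origins are licensed by ORC, CDC6 and CDT1, which load the MCM helicase, and the CDC45-MCM-GINS helicase then unwinds DNA ahead of polymerases that are held on the template by the PCNA clamp. In mitosis, condensins and topoisomerase II compact the chromosomes, the cyclin-dependent kinase CDK1 and the Polo and Aurora kinases drive division, and the spindle checkpoint holds the cell until every chromosome is attached. Replication genes are classically regulated by E2F factors at the border of G1 and S phase, and many mitosis genes through a CHR element beside CCAAT boxes. Mouse pluripotent stem cells are known for rapid cycles with a short G1 phase.

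The promoter letters of the members are shown because they separate the replication from the mitosis genes independently of the arrays. RefSeq promoter windows (mouse build GRCm38.p6, from 250 bases before to 50 bases after the start site) matched 46 members by symbol, 26 of replication and 20 of mitosis. The 160 bases before the start site are printed 5′ to 3′ on the strand of the gene for 4 members, with E2F-like and CHR letters in capitals. Mcm5 lies at chr8:75109349-75109508 on the plus strand, Orc1 at chr4:108579294-108579453 on the plus strand, Cdk1 at chr10:69352913-69353072 on the minus strand and Top2a at chr11:99024190-99024349 on the minus strand.
Mcm5: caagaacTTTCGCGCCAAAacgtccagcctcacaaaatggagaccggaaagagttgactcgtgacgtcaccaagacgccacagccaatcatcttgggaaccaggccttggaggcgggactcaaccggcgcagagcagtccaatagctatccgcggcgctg
Orc1: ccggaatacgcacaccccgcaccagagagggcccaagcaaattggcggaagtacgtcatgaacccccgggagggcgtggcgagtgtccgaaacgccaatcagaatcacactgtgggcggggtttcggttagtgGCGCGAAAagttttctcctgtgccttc
Cdk1: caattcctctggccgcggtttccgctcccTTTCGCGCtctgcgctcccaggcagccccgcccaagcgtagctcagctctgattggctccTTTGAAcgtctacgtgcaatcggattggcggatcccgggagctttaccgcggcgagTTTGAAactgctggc
Top2a: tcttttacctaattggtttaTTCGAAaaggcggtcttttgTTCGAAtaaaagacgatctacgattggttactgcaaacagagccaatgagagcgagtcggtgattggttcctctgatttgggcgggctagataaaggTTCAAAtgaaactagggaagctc
The E2F-like letters searched on both strands were TTTGGCGC, TTTCCCGC, TTTGCCGC, TTTCGCGC, TTCCCGCC and TTGGCGGG, and the CHR letters were TTTGAA and TTCGAA. In Mcm5 an E2F-like match on each strand overlapped the other, at -153 and -149 from the start site, and in Orc1 the match lay at -27. Cdk1 held an E2F-like match at -131 and CHR matches at -71 and -15. The stretch of Top2a held CHR matches at -140, -120 and -23 and no E2F-like letters.

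Shares are counted by gene, and a gene counts where any of its windows holds the letters, since some genes have several windows. E2F-like letters were present in 15 of 26 replication genes (57.7%), in 4 of 20 mitosis genes (20%) and in 5.34% of all 27025 genes in the table, which holds 32851 windows. The 4 mitosis genes were Cdc25a, Cdk1, Ncapd2 and Ncapg. CHR letters showed the opposite pattern, with 15 of 20 mitosis genes (75%), 5 of 26 replication genes (19.2%) and 21.7% of all genes. The 5 replication genes were Cdc45, Fen1, Mcm2, Mcm7 and Rfc3. CCAAT letters, searched on both strands, were found in 90% of mitosis genes, 65.4% of replication genes and 41.1% of all genes. All 15 mitosis windows with CHR letters also held CCAAT letters (75% of the 20), against 15.4% of replication windows and 9.65% of all genes. A match describes letters and is not a measured binding site.

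**Figure D1:**
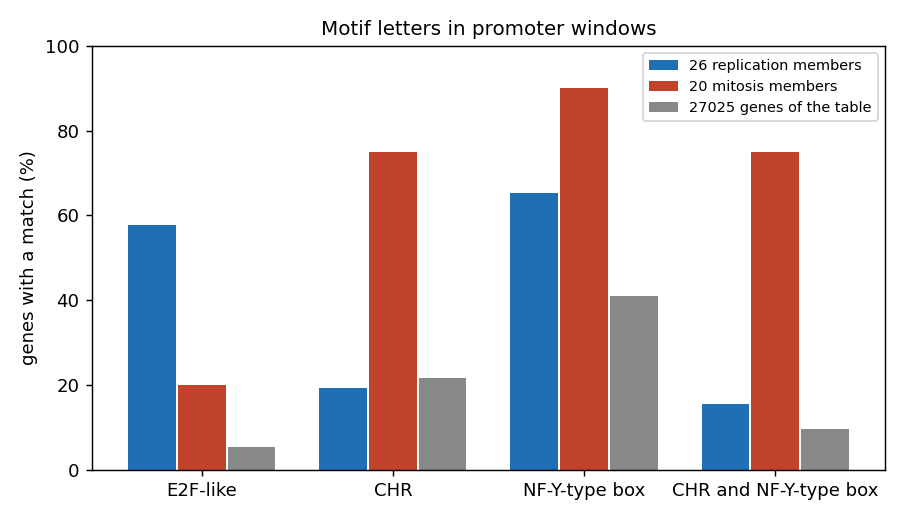
Percent of genes that hold each kind of letters in any of their promoter windows, for the 26 replication members, the 20 mitosis members and the 27025 genes of the RefSeq table (the NF-Y-type box is the CCAAT box). E2F-like letters stand at 57.7% in replication and 20% in mitosis members, and CHR letters at 19.2% and 75%.

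Across the series, the arrays fell into 2 classes that bear on every value. The control probe set for the 3′ end of 18S ribosomal RNA read 11.35 to 13.22 on the 6 arrays of iPSC with MEFs and both fractions, and 5.25 to 6.55 on the 4 arrays of iPSC in 2i/serum and the day 32 sample. The gap between 3′ and 5′ probe sets of Actb was 0.05 to 1.12 in the former and 2.70 to 3.88 in the latter. Within the first class, iPSC with MEFs stood apart from the fractions, with Actb gaps of 1.12 and 1.08 against 0.05 to 0.21 and Gapdh gaps of 3.18 and 2.53 against 1.03 to 1.56. The Gapdh gap did not follow the classes, since it was 0.84 to 2.25 in the second. The upper quartile of all values was 6.87 to 6.91 on the fraction arrays, 7.35 to 7.37 for iPSC with MEFs and 8.26 to 8.37 on the other arrays. Per the labels RNA was amplified with either of a pair of kits that are not assigned to samples, so kit, class and group cannot be told apart between the classes. Comparisons within a class are therefore given first. Of 8 pluripotency markers, all 8 exceeded a log2 value of 4 on every array outside the Sox2-negative fraction, where 5 of 8 did on each array. Sox2 itself read 9.46 and 10.45 on the Sox2-positive and 4.45 and 4.13 on the Sox2-negative arrays, whereas Pou5f1, the gene of the factor Oct4, read 10.92 and 10.38 against 10.06 and 11.11. The smallest p of an exact two-sided permutation test of 2 arrays against 2 is 0.33.

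The lists were first summarised on each array as the mean deviation of their members from each gene's own 10-array mean. For iPSC with MEFs the replication genes lay at 0.51 and 0.43 log2 units and the mitosis genes at -0.04 on both arrays, so the replication genes stood 0.55 and 0.47 above the mitosis genes. In no other group was the distance as large in that direction. The Sox2-positive arrays gave -0.06 and 0.04 and the Sox2-negative arrays 0.23 and -0.15. It was -0.18 and -0.15 for iPSC in 2i/serum, and -0.38 and -0.37 in the day 32 sample. Relative to all 8599 genes of the same array, replication genes stood at 0.70 and 0.65 for iPSC with MEFs, at -0.06 and 0.12 in the Sox2-positive fraction and at -0.39 and -0.27 in the Sox2-negative fraction. Mitosis genes on that scale stood at 0.15 and 0.19, at 0.00 and 0.08, and at -0.62 and -0.12 in the same order. The Sox2-negative arrays thus differed more from each other in mitosis than in replication genes. In bulk samples such as these, fewer dividing cells and less RNA per cell cannot be told apart.

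**Figure D2:**
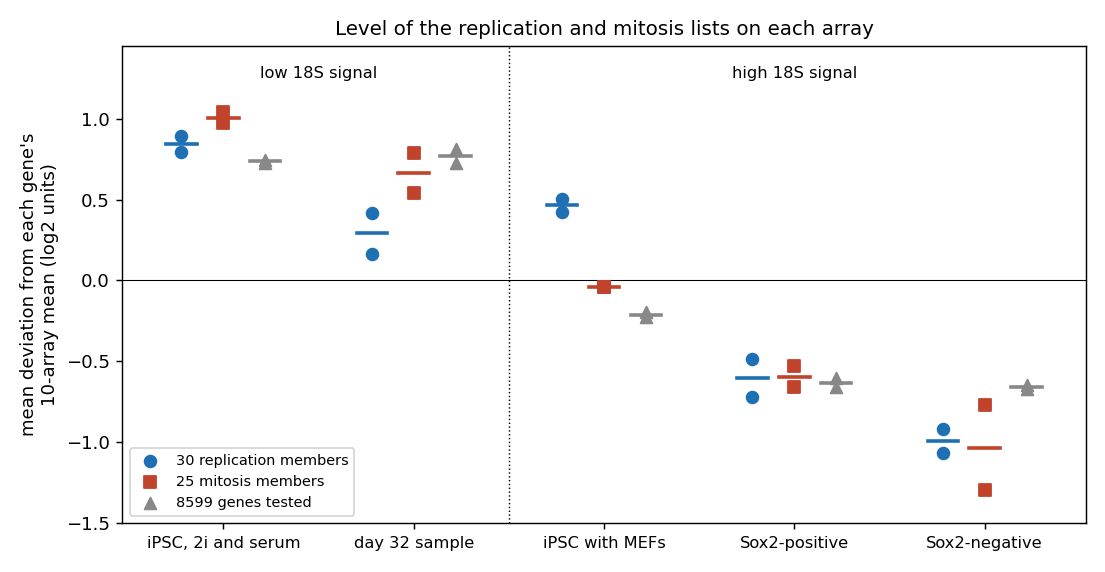
Mean deviation from each gene's 10-array mean (log2 units) for the 30 replication members, the 25 mitosis members and all 8599 genes. Each point is 1 array, bars are group means of 2 arrays, and the dotted line separates the classes by 18S signal. Replication members lie above mitosis members on both arrays of iPSC with MEFs (0.51 and 0.43 against -0.04) and below them on both day 32 arrays.

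**Figure D3:**
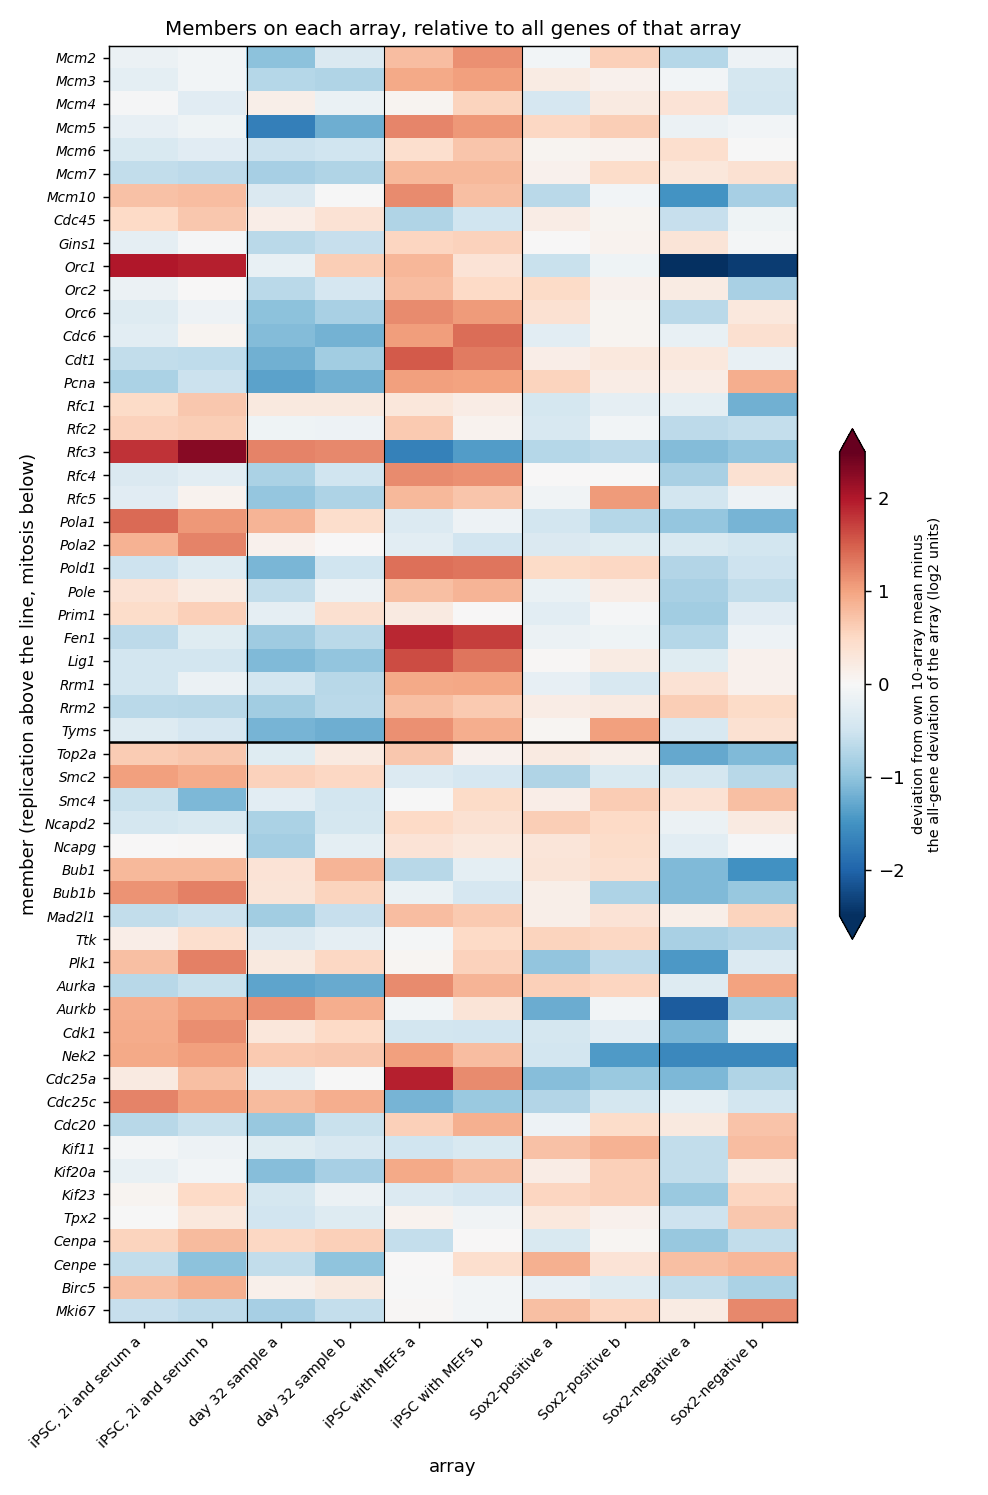
Deviation of each of the 55 members (rows) on each of the 10 arrays (columns) from its own 10-array mean, after subtraction of the mean deviation of all genes on that array, in log2 units. Orc1 is lowest on the Sox2-negative arrays, and most replication members are highest on an array of iPSC with MEFs.

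After the same 32 days of factor expression, few members separated the Sox2-positive from the Sox2-negative fraction. Orc1 of origin licensing, Pold1 of the polymerases, Top2a of condensation, and Bub1 and Ttk of the spindle checkpoint were higher in the Sox2-positive fraction. A gene is called here where limma gave an adjusted p under 0.05, Benjamini-Hochberg over 8599 genes. The called genes make 5 of 55 members (9.09%), against 6.86% of all genes called higher, which is near the background. None of the 55 was called lower by limma, against 5.65% of all genes, and at an unadjusted p under 0.05 the counts were 9 higher and 0 lower. Over all 8599 genes the unadjusted counts were 1248 higher and 1235 lower. The median difference, given as a log2 difference throughout, was 0.42 over the replication genes and 0.47 over the mitosis genes, beside -0.02 over all genes. Of the 55 members 40 had a positive and 15 a negative difference. The arrays of the fractions did not overlap in 24 of the 55 members and in 4439 of all 8599 genes. Lack of overlap alone therefore does not set a member apart.

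Orc1, the largest subunit of the origin recognition complex, read 5.02 and 5.51 on the Sox2-positive arrays and 3.05 and 3.21 on the Sox2-negative arrays. The negative arrays were under the filter value of 4, so only a bound is given, a level at least 2.4-fold higher on the Sox2-positive arrays (limma adjusted p = 0.00649). Cdc6, which loads MCM together with Cdt1, read 8.76 and 9.14 against 8.83 and 9.43, and these overlapped. Orc2, Orc6 and Cdt1 were not called either, with differences of 0.63, 0.46 and 0.20.

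Among the helicase subunits, Mcm2 read 10.6 and 11.32 in the Sox2-positive and 9.94 and 10.55 in the Sox2-negative fraction. Mcm5 read 9.03 and 9.19 against 8.35 and 8.47. Neither pair of groups overlapped, but neither difference was called (0.72 ± 0.37 and 0.70 ± 0.26, n = 2 arrays per group). The value after ± is here and below the SE from the limma fit to all 10 arrays, not from the compared arrays alone. The other subunits had differences from -0.11 for Mcm6 to 0.43 for Mcm3. Mcm10, which helps to activate the loaded helicase, read 6.85 and 7.5 against 6.02 and 6.7, with no overlap and a difference of 0.82 ± 0.34 that was not called.

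Pold1, the catalytic subunit of polymerase delta, read 10.09 and 10.2 against 8.87 and 9.11. It was 2.23-fold higher among the Sox2-positive cells (limma adjusted p = 0.0332), and its arrays did not overlap. All 5 polymerase and primase genes had positive differences, from 0.12 for Pola2 to that of Pold1. Pcna, the sliding clamp, read 10.92 and 10.62 in the positive and 10.54 and 11.3 in the negative fraction, which overlapped, with a 95% interval of the difference of -0.83 to 0.53. The clamp loader genes Rfc1 to Rfc5 had differences from 0.25 to 0.81, none called. The ribonucleotide reductase genes, which make deoxynucleotides, had negative differences of -0.51 for Rrm1 and -0.31 for Rrm2, not called.

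Bub1, a checkpoint kinase at the kinetochore, read 9.44 and 9.58 on the Sox2-positive and 7.99 and 7.62 on the Sox2-negative arrays. It was 3.26-fold higher (limma adjusted p = 0.00782). Ttk, the kinase that starts checkpoint signalling, read 7.55 and 7.56 against 6.16 and 6.27 and was 2.53-fold higher (limma adjusted p = 0.0136). Neither kinase overlapped between the fractions. Bub1b, a component of the complex that blocks mitotic exit, read 7.11 and 6.25 against 5.85 and 6.04, with a difference of 0.74 that was not called. Mad2l1 differed by -0.09.

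Top2a, the topoisomerase that untangles sister chromatids, read 9.22 and 9.18 on the Sox2-positive and 7.69 and 7.9 on the Sox2-negative arrays. It was 2.65-fold higher (limma adjusted p = 0.02), without overlap. The condensin genes Smc2, Smc4, Ncapd2 and Ncapg had differences from -0.14 to 0.56, none called. Cdk1 read 7.59 and 7.82 against 6.88 and 7.93, Plk1 4.95 and 5.33 against 4.48 and 5.61, and Aurkb 7.42 and 8.66 against 6.57 and 7.81. In all of these kinases the fractions overlapped, and the Sox2-negative arrays lay over 1 log2 unit apart. Nek2, a centrosome kinase, read 5.43 and 4.53 against 4.27 and 4.29, with both negative arrays below the positive ones and a difference of 0.70 that was not called. Cdc25a, a phosphatase that activates cyclin-dependent kinases, read 5.23 and 5.42 against 5.16 and 5.56, which overlapped. Mki67, the antigen detected by Ki-67 antibodies in dividing cells, read 10.13 and 9.96 against 9.58 and 10.59, so the positive arrays lay between the negative ones and its 95% interval of the difference was -0.80 to 0.72.

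No gene of the remaining roles was called between the fractions. The spindle and midzone genes Kif11, Kif20a, Kif23 and Tpx2 had differences from 0.14 to 0.79, all positive and all with overlapping arrays. Of the centromere and passenger genes, Cenpa, the centromeric histone, differed by 0.64, Birc5, the survivin of the passenger complex, by 0.47, and Cenpe, a kinetochore motor, by -0.16. The helicase activators Cdc45 and Gins1 differed by 0.49 and -0.06, and Tyms, which makes thymidylate, by 0.57. Cdc20 differed by -0.29, Cdc25c by -0.21, Aurka by 0.25, and the lagging strand genes Fen1 and Lig1 by 0.33 and 0.24.

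**Figure D4:**
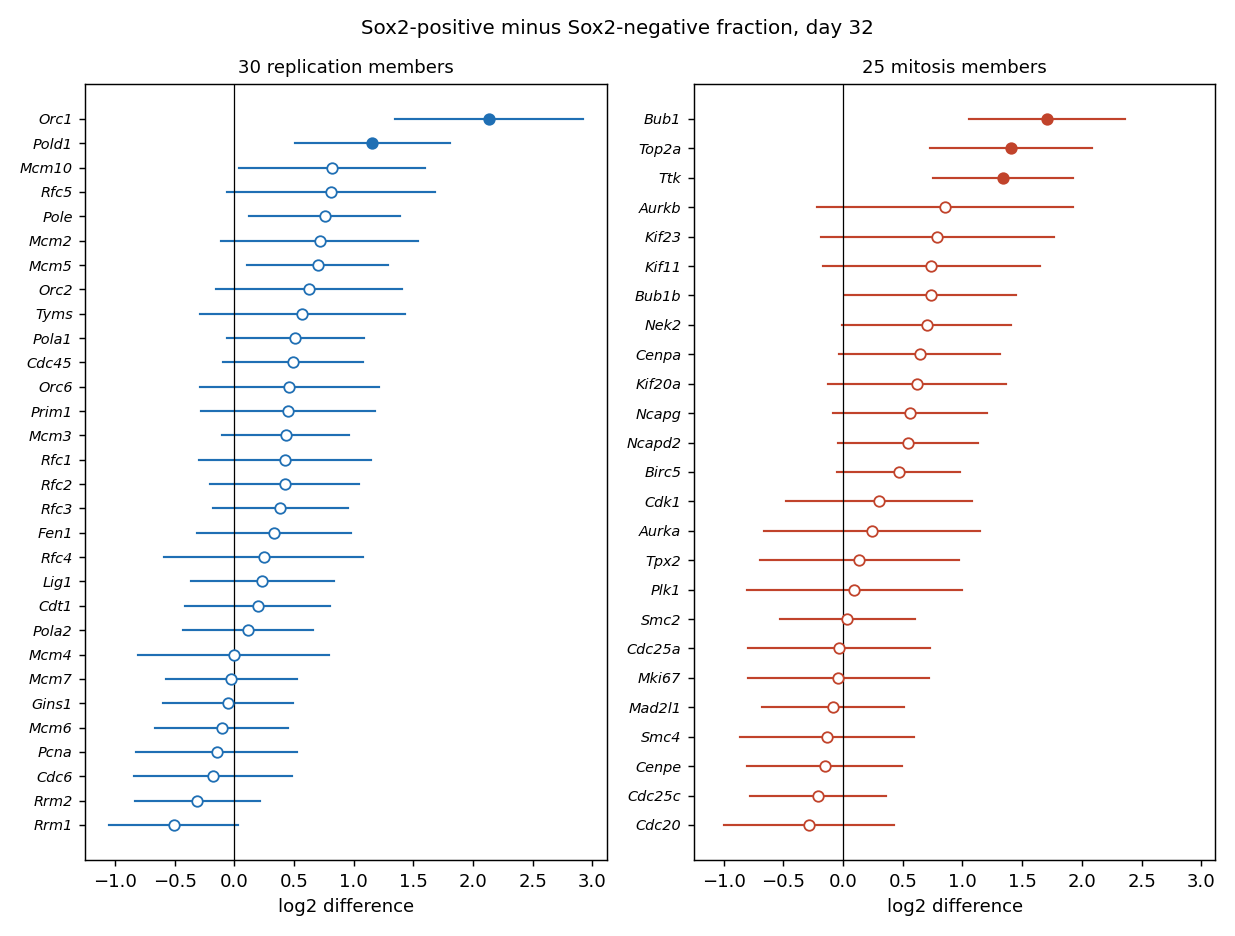
Log2 difference between the Sox2-positive and the Sox2-negative fraction for each member, with the 95% interval from limma, for 2 arrays per group. Filled points are called at an adjusted p under 0.05, and these are Orc1, Pold1, Bub1, Top2a and Ttk. The interval of Mki67 runs from -0.80 to 0.72.

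Orc1 and Bub1 were called with each of the 4 fraction arrays left out in turn. Pold1 was not called in any of these omissions, after quantile normalization or from the mean of its probe sets. Top2a was not called without Sox2-positive replicate a or replicate b, nor without Sox2-negative replicate a, and Ttk was not called without Sox2-positive replicate b. The count was 2 without Sox2-positive replicate b, 3 without Sox2-negative replicate a and 6 without Sox2-negative replicate b, where Kif11 and Kif23, motors of the spindle and midzone, joined. Kif23 read 5.4 and 6.88 on the Sox2-negative arrays, the largest difference between replicates of any member (1.48). The other kept probe set of Bub1 gave 0.96 and was not called (limma adjusted p = 0.26 over the kept probe sets). A fit to the 4 arrays alone called only Orc1, and estimated array weights left Orc1 and Bub1.

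Markers of other cells moved with the fractions, and their part in these differences was not tested. The 8 pluripotency markers summed to 81.47 and 83.93 log2 units for the positive and 42.93 and 46.58 for the negative fraction. Of 10 fibroblast markers, 0 exceeded 4 on the Sox2-positive arrays and 4 did on each Sox2-negative array (sums of 26.44 and 25.93 against 35.08 and 38.31). The 4 measured adipocyte markers summed to 15.52 and 13.69 against 27.88 and 28.84, with 2 against 3 above 4. Of 5 keratinocyte markers 0 exceeded 4 on the positive and 1 on each negative array (sums of 13.85 and 14.08 against 20.91 and 23.78). Of 5 leukocyte markers 1 exceeded 4 on every fraction array, and of 5 endoderm markers 0 or 1 did. Leukocyte sums were higher on the positive arrays (14.69 and 14.97 against 12.31 and 12.67), and the 1 leukocyte marker that passed the filter was called higher there (2.765). Endoderm sums were 15.10 and 15.14 against 12.11 and 12.90, while the 1 endoderm marker that passed the filter gave -0.48 and was not called.

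Against iPSC with MEFs, the Sox2-positive fraction held less of most replication genes. Called lower were 22 of 30 replication genes (73.3%) and 5 of 25 mitosis genes (20%), together 27 of 55 (49.1%), where 29.8% of all genes were lower. None was called higher by limma, against 6.13% of all genes, and at an unadjusted p under 0.05 the counts were 0 higher and 33 lower. Over all 8599 genes the unadjusted counts were 766 higher and 3236 lower. The median was -1.02 for replication genes, -0.34 for mitosis genes and -0.46 for all genes, so the mitosis median lay near that of all genes. By role, 5 of 6 helicase subunits, 4 of 5 licensing genes, 4 of 6 clamp genes, 3 of 5 polymerase and primase genes and both lagging strand genes were lower. No condensation gene, spindle motor or centromere gene was called. Differences of the spindle and midzone genes ran from -0.90 for Kif20a to 0.81 for Kif11, and those of the condensation genes from -0.63 to -0.26.

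Fen1, which trims Okazaki fragments, read 12.16 and 11.98 for iPSC with MEFs and 9.67 and 9.77 in the Sox2-positive fraction. It was 5.1-fold lower (limma adjusted p = 0.0012), with a wide gap between the groups. Lig1, the ligase that seals those fragments, read 10.77 and 10.43 against 8.69 and 8.93 and was 3.46-fold lower (limma adjusted p = 0.00207). Among licensing genes, Cdc6 read 10.53 and 10.85 in iPSC with MEFs and was 3.34-fold lower in the fraction (limma adjusted p = 0.00318). Mcm10 read 9.17 and 8.7 and was 3.39-fold lower (limma adjusted p = 0.00566). No array of the Sox2-positive fraction reached the lowest array of iPSC with MEFs for any of these genes. Lack of overlap was common here, with 48 of the 55 members and 6134 of all 8599 genes.

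Differences of the helicase subunits were smaller in size, from -1.26 for Mcm3 to -0.83 for Mcm4, the one subunit not called. The other kept probe set of Mcm4 gave -1.195 and was called lower (limma adjusted p = 0.0186 over the kept probe sets). Mcm2 read 11.91 and 12.24 for iPSC with MEFs and was 2.17-fold lower (limma adjusted p = 0.0412), and Mcm5 read 10.21 and 10.04 and was 2.02-fold lower (limma adjusted p = 0.0168). Pcna read 11.86 and 11.81 and was 2.09-fold lower (limma adjusted p = 0.0235). The log2 differences of these genes, -1.12, -1.02 and -1.07, stand beside an all-gene median of -0.46.

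Among mitosis genes, Cdc25a read 8.7 and 7.9 for iPSC with MEFs and was 7.86-fold lower among the Sox2-positive cells (limma adjusted p = 0.001). Its other kept probe set gave -0.90 and was not called (limma adjusted p = 0.079 over the kept probe sets), so the size rests on the probe set used. Nek2 read 7.38 and 7.08 and was 4.76-fold lower (limma adjusted p = 0.00166), and Plk1 read 6.45 and 6.94 and was 2.94-fold lower (limma adjusted p = 0.0164). Mad2l1 and Cdc20, an activator of the anaphase-promoting complex, were the other mitosis genes called, with -0.90 and -0.995. The other kept probe sets of Cdc20 gave larger differences of -2.78 and -2.095 (limma adjusted p = 0.0022 and 0.0045 over the kept probe sets). Cdk1 read 8.04 and 7.99, Top2a 10.13 and 9.53 and Mki67 9.88 and 9.74 for iPSC with MEFs. Their differences of -0.31, -0.63 and 0.24 were not called.

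The count against iPSC with MEFs depended on the scale. After quantile normalization between the arrays, 6 members were called, of which Cdc25a, Nek2, Fen1 and Lig1 were lower and Bub1 and Kif11 higher. On the deposited scale Kif11 gave 0.81 on the probe set used and 0.025 and -0.52 on its other kept ones. Bub1 gave 0.41 and 0.275 there, and none of these was called. After centring each array on its median, 15 were called, 12 of replication and 3 of mitosis, all lower. The all-gene median was -0.11 after quantile normalization and -0.18 after centring, against -0.46 as reported. The shares of all genes called after these steps are not given, so the counts have no background beside them. With 1 array left out, the count was 8 without iPSC with MEFs replicate a, 12 without replicate b of that group, 11 without Sox2-positive replicate a and 26 without Sox2-positive replicate b. Cdc25a, Fen1, Nek2, Rrm1, Lig1, Cdt1, Cdc6 and Mcm3 were called in all 4 omissions. Fibroblast markers summed to 42.27 and 40.62 log2 units for iPSC with MEFs, with 5 and 4 of 10 above 4, against 26.44 and 25.93 in the fraction with 0 above 4, and 3 of the 7 that passed the filter were called lower. Of the 8 pluripotency markers 2 were called lower, with 7 negative differences and a median of -0.34. Of the 4 adipocyte markers 1 was called higher, with differences from -0.195 to 3.18. The 1 leukocyte and the 1 endoderm marker that passed the filter were called higher (1.605 and 1.12), and no keratinocyte marker was called. These markers and the wider Actb and Gapdh gaps of iPSC with MEFs go with the comparison, and their part in it was not tested.

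The Sox2-negative fraction was lower than iPSC with MEFs in both kinds of genes. Called lower were 25 of 30 replication genes (83.3%) and 15 of 25 mitosis genes (60%), together 40 of 55 (72.7%), where 35.6% of all genes were lower. None was called higher by limma against 12% of all genes, and at an unadjusted p under 0.05 the counts were 0 higher and 43 lower. Over all 8599 genes the unadjusted counts were 1251 higher and 3522 lower. The medians were -1.46 for replication, -0.90 for mitosis and -0.51 for all genes. All 5 licensing genes and all 4 checkpoint genes were lower, as were 5 of 7 mitotic kinases and phosphatases, 3 of 5 condensation genes and 2 of 3 centromere and passenger genes. Of the spindle and midzone genes 1 of 4, Kif20a, was lower (-1.52). Cenpe stood near its own level throughout, with 6.16 and 6.53 for iPSC with MEFs and 6.43 and 6.54 in the Sox2-negative fraction. This comparison uses the same iPSC arrays as that of the Sox2-positive fraction, so the results are not independent.

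Orc1 read 6.87 and 6.34 for iPSC with MEFs and was at least 6.08-fold lower in the Sox2-negative fraction (limma adjusted p = 0.000242), where both arrays were under 4. In the Sox2-positive fraction it was 2.53-fold lower than in the same iPSC. Nek2 was 7.73-fold lower (limma adjusted p = 0.000287) and Cdc25a 7.67-fold lower (limma adjusted p = 0.000358), where the other Cdc25a probe set gave -0.56 and was not called (limma adjusted p = 0.22 over the kept probe sets). Fen1 was 6.41-fold and Mcm10 5.96-fold lower (limma adjusted p = 0.000287 and 0.000659). Pold1 read 11.47 and 11.39 for iPSC with MEFs and was 5.43-fold lower (limma adjusted p = 0.000409), with -1.05 on its other probe set. For each of these genes every Sox2-negative array lay under both arrays of iPSC with MEFs. The groups did not overlap in 47 of the 55 members and in 6521 of all 8599 genes.

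Mcm2 and Mcm5 were 3.56-fold and 3.28-fold lower (limma adjusted p = 0.00369 and 0.00112), and Pcna was 1.89-fold lower (limma adjusted p = 0.0326). Top2a was 4.1-fold and Plk1 3.14-fold lower (limma adjusted p = 0.000989 and 0.00895). Cdk1 with -0.61 ± 0.34 and Mki67 with 0.28 ± 0.34 were not called.

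Of the 40 calls, 23 were made with each of the 4 arrays left out in turn, Orc1, Fen1, Nek2, Cdc25a, Pold1, Mcm10, Mcm2, Mcm5 and Top2a among them. Plk1 was lost without iPSC with MEFs replicate b, and Pcna in each omission other than that of Sox2-negative replicate b. Quantile normalization left 16 calls, 11 of replication and 5 of mitosis, all lower, and median centring left 32. The all-gene medians were then -0.13 and -0.255, against -0.505 as reported, and the shares of all genes called are not given. The difference between the lists, the replication median minus the mitosis median, was -0.56 here and -0.68 in the Sox2-positive fraction against the same iPSC, and -0.04 between the fractions themselves.

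Markers of cell type differed widely in this comparison. Of the 8 pluripotency markers 7 were called lower in the Sox2-negative fraction, with a median of -5.86, and their sums were 42.93 and 46.58 against 85.70 and 86.99 for iPSC with MEFs. Of the 4 adipocyte markers 3 were called higher, with a median of 3.47 and sums of 27.88 and 28.84 against 11.99 and 10.18. Of the 3 keratinocyte markers that passed the filter 2 were called higher, and all 5 summed to 20.91 and 23.78 against 12.11 and 13.21. The 3 differences ran from -0.15 to 8.33 with a median of 0.69, the largest being that of Krt6b. Of the 5 markers 1 exceeded 4 on each negative array, against 0 and 1. Krt6b, a keratin, read 8.32 and 11.13 against 1.43 and 1.36. Fibroblast markers summed to 35.08 and 38.31 against 42.27 and 40.62, with 4 of 10 above 4 on each negative array against 5 and 4. They went both ways, with 4 positive and 3 negative differences among the 7 that passed the filter. These ran from -3.42 to 2.03 with a median of 0.615, and 1 was called higher and 2 lower. The 1 leukocyte marker that passed the filter was called lower (-1.16) and the 1 endoderm marker higher (1.60). The part of these cells, and of the wider Actb and Gapdh gaps of iPSC with MEFs, was not tested.

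**Figure D5:**
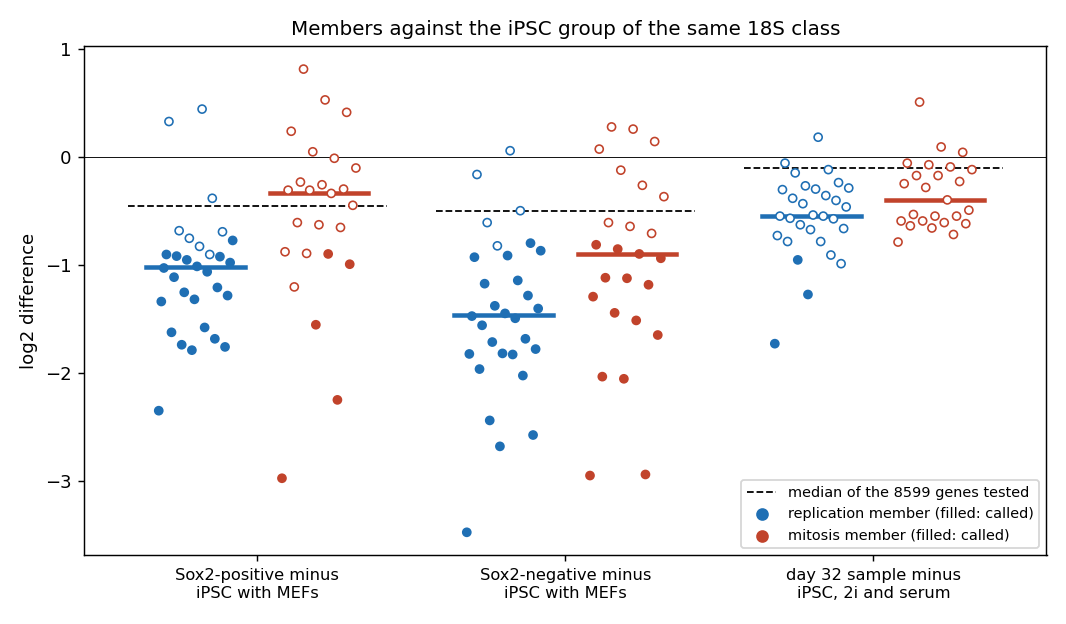
Log2 difference of each member against the iPSC group of the same 18S class. Each circle is 1 gene, filled where called (limma adjusted p under 0.05), thick bars are list medians and dashed lines the median of all 8599 genes. Replication medians lie at -1.02, -1.46 and -0.55, and mitosis medians at -0.34, -0.90 and -0.40.

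In the other class, the day 32 sample was set against iPSC in 2i/serum. Called lower were 3 of 30 replication genes, Orc1, Mcm5 and Pola2, and no mitosis gene, together 5.45% of the members against 2.5% of all genes. None was called higher by limma, against 5.23% of all genes. At an unadjusted p under 0.05, 8 replication and 3 mitosis genes were lower and 0 members were higher. Over all 8599 genes the unadjusted counts were 1071 lower and 1073 higher. Of the 55 members 51 had a negative difference, with medians of -0.55 for replication, -0.40 for mitosis and -0.11 for all genes. The groups did not overlap in 42 of the 55 members and in 5360 of all 8599 genes, so lack of overlap was common.

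Orc1 read 8.98 and 8.91 for iPSC in 2i/serum and 6.77 and 7.66 in the day 32 sample. It was 3.32-fold lower (limma adjusted p = 0.0211). Mcm5 read 9.72 and 9.79 against 8.2 and 8.76 and was 2.42-fold lower (limma adjusted p = 0.0224). Pola2, the accessory subunit of the primase-polymerase, read 7.65 and 8.01 against 6.88 and 6.87 and was 1.94-fold lower (limma adjusted p = 0.0455). None of the 3 overlapped between the groups. Orc1 and Mcm5 were called without day 32 replicate b, where Pola2 was not. No member was called without either array of iPSC in 2i/serum or without day 32 replicate a, nor in a fit to the 4 arrays alone.

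Mcm2 read 11.93 and 12 for iPSC in 2i/serum and 11.04 and 11.79 in the day 32 sample, Mcm10 9.66 and 9.68 against 8.54 and 8.98, and Pcna 10.99 and 11.22 against 10.41 and 10.65. The groups did not overlap in these genes, and their differences of -0.55, -0.91 and -0.58 were not called. Cdk1 read 10.37 and 10.57 against 9.7 and 10, Plk1 8.09 and 8.59 against 7.57 and 7.92, and Top2a 11.02 and 11.06 against 10.07 and 10.69. Here too the day 32 arrays lay under those of iPSC, and the differences of -0.62, -0.60 and -0.66 were not called. Mki67 read 10.2 and 10.11 against 9.93 and 10.26, which overlapped. Among the remaining roles, differences ran from -1.28 to 0.18 over the helicase subunits, from -1.73 to -0.39 over the licensing genes and from -0.79 to -0.23 over the spindle and midzone genes. Smc4, with 0.51, was the largest of the 4 positive differences and was not called.

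Markers of other cells also differed between these groups. Of 10 fibroblast markers, 6 exceeded 4 on each day 32 array, against 2 and 4 on those of iPSC in 2i/serum, and all 4 adipocyte markers did so against 2. The adipocyte markers summed to 31.62 and 29.91 against 15.90 and 18.31 log2 units. All 8 pluripotency markers exceeded 4 on every one of these arrays, but all 8 had negative differences, with a median of -0.73. Their sums were 82.08 and 89.80 at day 32 against 91.26 and 92.57. None of the 8 was called by limma, and 3 were lower at an unadjusted p under 0.05. Of 5 keratinocyte markers 3 exceeded 4 on each day 32 array against 1, with sums of 26.42 and 28.57 against 18.91 and 18.46, and Krt6b read 8.76 and 11.03 against 1.98 and 1.88. Of 5 endoderm markers 1 and 2 exceeded 4 at day 32 against 0, and of 5 leukocyte markers 1 on each array. The part of these cells in the differences was not tested.

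Between the classes the scale itself moved. iPSC in 2i/serum lay 1.01 above iPSC with MEFs in the median of all genes, and 52.9% of all genes were called higher and 8.15% lower. Of the 55 members 23 were called higher (41.8%) and 4 lower (7.27%). The member lists differed, with 8 replication genes higher and 4 lower, and 15 mitosis genes higher and none lower by limma (16 and 0 at an unadjusted p under 0.05). Other genes of the same pathways, given below, did not show so wide a distance. Over all 8599 genes the unadjusted counts were 4835 higher and 797 lower. Relative to the all-gene median, the replication median stood at -1.03 and the mitosis median at 0.08. After median centring the split became 11 higher and 25 lower, and after quantile normalization 14 higher and 10 lower. The all-gene medians were then -0.11 and 0.235. The higher genes under both settings were among the 23, the 4 lower genes were again lower, and the further lower genes, Mcm5, Pcna and Aurka among them, had not been called. No called gene changed direction under these settings, while the split between higher and lower moved with the scale. The shares of all genes called under them are not given, so the new counts cannot be set against those of other genes.

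Rfc3, a clamp loader subunit, read 8.08 and 8.52 for iPSC in 2i/serum against 3.64 and 3.89 with MEFs, at least 19.7-fold higher (limma adjusted p = 2.07e-05). Pola1, the catalytic subunit of the primase-polymerase, read 10.83 and 10.49 against 8.14 and 8.32, and Pola2 read 5.59 and 5.34 with MEFs. They were 5.39-fold and 5.15-fold higher. Cdc25c, the phosphatase that activates CDK1 at mitotic entry, read 7.38 and 7.15 against 4.03 and 4.23 and was 8.79-fold higher. Bub1b read 9.5 and 9.61 against 7.28 and 6.98 and was 5.37-fold higher, and Cdk1 was 5.48-fold higher. The 4 genes called lower were Fen1, Cdt1, Lig1 and Pold1. Fen1 read 10.56 and 10.9 in 2i/serum, Cdt1 11.35 and 11.32 against 12.56 and 12.28 with MEFs, Lig1 9.61 and 9.61 and Pold1 10.51 and 10.68. These were 2.53-fold, 2.12-fold, 1.99-fold and 1.78-fold lower, against an all-gene median that went the other way. Fen1 alone of the 4 was called with each of the 4 iPSC arrays left out in turn. Pold1 was lost in every one of these omissions, and Cdt1 and Lig1 without iPSC with MEFs replicate a, where 1 gene was lower. From the mean of the kept probe sets Cdt1 was not called, Fen1 was called higher and Pold1 stood at 0.04. Lig1 was still called lower, but it has 1 probe set on the array, so its difference could not change under this setting.

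The day 32 sample lay 1.46 above the Sox2-positive and 1.48 above the Sox2-negative fraction in the all-gene median. Against the Sox2-positive fraction 27 members were called higher (49.1%), where 67.9% of all genes were, and none lower by limma, where 4.91% were (27 and 1 at an unadjusted p under 0.05). Against the Sox2-negative fraction 38 were called higher (69.1%), where 69.5% were, and none lower by limma, where 4.98% were (38 and 0 at an unadjusted p under 0.05). Over all 8599 genes the unadjusted counts were 5998 higher and 454 lower against the Sox2-positive fraction. Against the Sox2-negative fraction they were 6109 and 462. With median centring the counts were 7 higher and 22 lower against the Sox2-positive, and 16 higher and 15 lower against the Sox2-negative fraction. With quantile normalization they were 11 and 13, and 21 and 7. The all-gene medians were 0.095 and 0.14 with median centring, and 0.38 and 0.41 with quantile normalization. The shares of all genes called under these settings are not given, so these counts cannot be set against those of other genes. The higher genes under these settings were all among those reported. The lower ones had not been called, except Rrm1 and Gins1, which went from higher to lower against the Sox2-negative fraction with median centring. On the deposited scale the share of members called is at or under the background in both comparisons, which share the day 32 arrays. The groups did not overlap in 43 members and 7365 of all genes against the Sox2-positive fraction. Against the Sox2-negative fraction the counts were 44 and 7513.

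Nek2 read 7.92 and 8.03 in the day 32 sample and Aurkb, the kinase of the chromosomal passenger complex, read 11.2 and 11.04. Both lay above all fraction arrays. Aurkb was 8.46-fold and 15.2-fold higher than in the Sox2-positive and Sox2-negative fraction. Its other kept probe set gave smaller log2 differences, 0.49 that was not called (limma adjusted p = 0.53 over the kept probe sets) and 1.99. Nek2 was 7.97-fold and 13-fold higher, and Plk1, at 7.57 and 7.92, was 6.08-fold above the Sox2-positive fraction. Rfc3 read 7.49 and 7.54 at day 32, 4.15 and 4.26 on the Sox2-positive arrays and 3.76 and 3.88 on the Sox2-negative ones, and was 9.92-fold and at least 11.4-fold higher. Its other kept probe set was called in the opposite direction in both comparisons (-2.39 and -2.59, limma adjusted p = 0.00042 and 0.00028 over the kept probe sets), and the mean of its probe sets gave 0.46 and 0.55, not called, so the direction of Rfc3 is not settled here. Cdc25c read 6.91 and 7.12 in the day 32 sample, 4.0 and 4.35 in the Sox2-positive fraction and 4.48 and 4.29 in the negative one. Pola1 read 10.25 and 9.93, then 7.55 and 7.36 and last 7.03 and 6.86 in the same order. Cdc25c was 7.16-fold and 6.19-fold higher, and Pola1 6.21-fold and 8.85-fold. Bub1 read 10.85 and 11.43, 10.1-fold above the Sox2-negative fraction, and Orc1 was at least 9.29-fold above it. In deposited values the order of Orc1 over all 5 groups was iPSC in 2i/serum, the day 32 sample, iPSC with MEFs, the Sox2-positive and the Sox2-negative fraction, with the day 32 sample and iPSC with MEFs overlapping. The mean deviations of all genes were 0.74, 0.77, -0.21, -0.63 and -0.66 in the same order. The order of Orc1 between the classes is therefore not settled.

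Other probe sets of the members bear on these values. For 26 members 38 further probe sets passed the filter. Between the fractions 8 of the 38 had the sign opposite to that of the probe set used, and 0 of these were called, but 22 did so between the iPSC groups, 8 of them called. For the day 32 sample 14 did so against the Sox2-positive fraction (7 called), 9 against the Sox2-negative fraction (4 called) and 5 against iPSC in 2i/serum (0 called). Against iPSC with MEFs there were 7 for the Sox2-positive (1 called) and 6 for the Sox2-negative fraction (3 called). Rrm1, a ribonucleotide reductase subunit that was singled out after its values were seen, shows the size of this. Its probe set used here averaged 11.04 for iPSC in 2i/serum and 11.35 with MEFs, while its other probe set averaged 4.77 and 9.63, and 3.90 in the day 32 sample against 9.71 and 9.81 in the fractions. Fen1 also changed sign between the iPSC groups, with 8.32 and 5.23 on its other probe set. Rfc3 likewise had means of 4.39 and 4.75 there. In the Sox2-positive fraction the other Fen1 probe set averaged 2.68, under the filter value and in the same direction from iPSC with MEFs as the probe set used. Between the fractions, other probe sets of Orc2 and Mcm10 were called higher in the Sox2-positive fraction (1.54 and 1.19, limma adjusted p = 0.0174 and 0.0463 over the kept probe sets), where the ones used were not. Smc4, a condensin subunit, was higher on another probe set against iPSC with MEFs (1.95 for the positive fraction and 1.88 for the negative one), where the one used gave -0.26 and -0.13.

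Further genes of the same pathways were counted from lists that named 30 other replication and 46 other mitosis genes, of which 24 and 38 were measured. Between the fractions 2 of 24 (8.33%) and 1 of 38 (2.63%) were higher in the Sox2-positive fraction, near and under the 6.86% of all genes, and these were Orc5 and Pole4, subunits of the origin recognition complex and of polymerase epsilon, and Sgo1, the protector of centromeric cohesion. Orc5 read 8.58 and 8.52 against 7.12 and 7.46, Pole4 6.2 and 7.11 against 5.15 and 5.07 and Sgo1 7.62 and 7.81 against 6.71 and 6.62, without overlap. Against iPSC with MEFs, 18 of 24 other replication genes (75%) and 8 of 38 other mitosis genes (21.1%) were lower in the Sox2-positive fraction, beside 29.8% of all genes, and 17 of 24 (70.8%) and 18 of 38 (47.4%) in the Sox2-negative fraction, beside 35.6%, where Ckap2 was higher. The replication medians were -1.21 and -1.62 and the mitosis medians -0.70 and -0.93. Between the day 32 sample and iPSC in 2i/serum none of either list was called by limma, beside 2.5% of all genes called lower and 5.23% higher. At an unadjusted p under 0.05, 10 replication and 2 mitosis genes were lower and 0 higher, beside 1071 lower and 1073 higher of all 8599 genes. In iPSC in 2i/serum against iPSC with MEFs, 12 of 24 (50%) and 20 of 38 (52.6%) were higher, beside 52.9% of all genes. Lower were 1 and 3, beside 8.15%. Medians of 0.82 and 0.98 did not repeat the wide distance between the member lists. For day 32 the replication and mitosis medians were 1.66 and 1.405 against the Sox2-positive fraction, and 1.835 and 1.63 against the Sox2-negative one. In both, the order was the reverse of that among the members.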

How the data were processed

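RNA from 10 samples, 5 groups of 2, was measured on single-channel Affymetrix mouse arrays. The deposited values are log2 signals of 22690 probe sets that the authors normalized, and GCRMA and the affy package are named in the submitters' processing notes. The step between GCRMA and the deposited table is not given in the sources used here. Probe sets over 4 (log2) on 2 or more arrays were kept, 14012 in all, and the one with the highest mean over the 10 arrays stood for each gene with a single symbol. No further normalization was applied. All 10 arrays were fitted with a mean per group in limma 3.58.1 (R 4.3.3), with Benjamini-Hochberg adjustment over 8599 genes and a threshold of 0.05. Arrays carry no counts, so their number limits the precision. Where a group was at or under 4 on both arrays, a fold is a bound against the filter value.

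The members and lists were chosen with earlier results of these data known. Values on each array are given for 8 members, Mcm2, Mcm5, Mcm10, Pcna, Cdk1, Plk1, Top2a and Mki67, and for up to 6 called members in each direction and comparison whose groups did not overlap, by size. Others were named where a role was described. Medians over lists carry no test. Promoter letters were searched on both strands of RefSeq windows in Python 3.11.15, and plots were drawn with matplotlib 3.10.9. Alternatives were quantile normalization, median centring, no or a stricter filter (6), the mean of a gene's kept probe sets, the compared arrays alone, array weights, a replicate block, each array left out in turn and the Mcm, Pol, Gins, Orc and Rfc families alone. The fit was also run on simulated arrays with independent values around a common mean per gene and a small set of changed genes. These held no shift between the classes, so that run does not test the calls given here. Replicate letters a and b were tested for pairing by the correlation of same-lettered deviations from the group means, and they were not treated as pairs.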

Additional observations from a re-analysis of the deposited data

How the results depend on the processing

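For the Sox2-positive against the Sox2-negative fraction, the 5 members called became 1 in a fit to the compared arrays alone, 2 with array weights and 2 to 6 with an array left out. Against iPSC with MEFs the 27 of the Sox2-positive fraction became 6 with quantile normalization, 15 with median centring and 8 to 26 with an array left out. The 40 of the Sox2-negative fraction became 16 with quantile normalization. The 3 of the day 32 sample against iPSC in 2i/serum became 0 in the compared arrays alone and 0 to 2 with an array left out. With fewer arrays, fewer degrees of freedom remain, and the cause of the other changes was not tested. The shares of all genes called under these settings are not given here. A change in a member count can therefore not be set against that of other genes.

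The replication minus the mitosis median was -0.04 between the fractions and -0.28 to 0.24 with an array left out, so its sign is not settled. For the Sox2-positive fraction against iPSC with MEFs it was -0.68, with -0.44 after quantile normalization, -0.57 from mean probe sets and -0.68 to -0.55 in the omissions. For day 32 against iPSC in 2i/serum it was -0.15, with -0.28 from mean probe sets and -0.21 to -0.12 in the omissions. Between the iPSC groups it was -1.11, with -0.61 after quantile normalization, -1.03 at the stricter filter, -0.76 from mean probe sets, -0.83 for the Mcm, Pol, Gins, Orc and Rfc families and -1.32 to -0.95 in the omissions. For day 32 against the Sox2-positive fraction it was -0.09, with -0.15 after quantile normalization, -0.89 from mean probe sets, -0.038 for those families and -0.16 to -0.10 in the omissions. Against the Sox2-negative fraction it was -0.88, and -0.50 after quantile normalization.

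Single members changed sign as follows. Between the fractions, Pcna ran from -0.53 to 0.23 with an array left out (0.00 without Sox2-positive replicate b), and Mki67 reached 0.045 without that array and 0.47 without Sox2-negative replicate b. Plk1 ran from -0.47 to 0.66 (-0.095 without Sox2-positive replicate b) and Cdk1 from -0.23 to 0.83, both lowest without Sox2-negative replicate a and highest without Sox2-negative replicate b. Against iPSC with MEFs, quantile normalization gave 0.27 for Cdk1 and 0.11 for Top2a in the Sox2-positive fraction, and in the Sox2-negative fraction Mki67 ran from -0.23 without Sox2-negative replicate b to 0.78 without replicate a. For day 32 Mki67 gave 0.058 after quantile normalization and 0.11 without day 32 replicate a. Between the iPSC groups, mean probe sets gave 0.88 for Fen1 and 0.04 for Pold1. Of the other single-member values, 751 kept direction and call, 74 lost the call and 1 gained it.

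Correlations of same-lettered deviations were 0.33 and 0.209 for the day 32 sample with the Sox2-positive and Sox2-negative fraction, and -0.062 to 0.048 for the other pairs of groups, so the letters were not treated as pairs. With a replicate block the counts were 5, 29, 41 and 3 for the comparisons above in that order, 27 between the iPSC groups, and 27 and 38 for day 32 against the Sox2-positive and Sox2-negative fraction. The 3 of the day 32 sample against iPSC in 2i/serum were then Orc1, Mcm5 and Cdc6, in place of Pola2.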

Other observations

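Regulators of cell cycle transcription were counted from a list of 15 genes, of which 12 were measured. Mybl2, a factor that acts at mitosis promoters, read 10.08 and 10.15 in the Sox2-positive and 7.69 and 7.86 in the Sox2-negative fraction, and was the 1 gene of the 12 called between them (5.06-fold higher, limma adjusted p = 0.00347). That is 8.33% of the list, near the 6.86% of all genes called higher. Of the 12, 1 was higher and 3 were lower in the Sox2-positive fraction than in iPSC with MEFs (beside 6.13% and 29.8% of all genes), and 2 were higher and 5 lower in the Sox2-negative fraction (beside 12% and 35.6%). The genes described here were singled out after their values were seen. Against iPSC with MEFs, which read 10.35 and 10.34, Mybl2 was 5.94-fold lower in the Sox2-negative fraction and was not called in the Sox2-positive fraction (-0.23 ± 0.33).

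E2f8, a repressor among the E2F factors, read 10.79 and 10.44 for iPSC with MEFs, 7.99 and 7.93 on the Sox2-positive and 6.84 and 6.72 on the Sox2-negative arrays. It was 6.3-fold and 14.3-fold lower than in iPSC with MEFs (limma adjusted p = 0.00136 and 0.00015). Tfdp1, the dimer partner of E2F factors, read 11.1 and 10.89 for iPSC with MEFs and was 3.99-fold and 2.77-fold lower.

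Rb1, the retinoblastoma protein that binds E2F factors, moved the other way. It read 4.97 and 4.56 for iPSC with MEFs, 6.66 and 5.9 in the Sox2-positive and 7.56 and 7.14 in the Sox2-negative fraction, 2.86-fold and 6-fold higher (limma adjusted p = 0.0438 and 0.00339). In the other class it read 8.34 and 6.92 for iPSC in 2i/serum and 10.41 and 9.49 in the day 32 sample, 4.99-fold higher (limma adjusted p = 0.0279). No array of a day 32 group overlapped the iPSC arrays of its class. Both fractions share the arrays of iPSC with MEFs.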
